A study of Homo sapiens with 6 samples.

Results

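The clustered histone genes are the genes of the human histone clusters, named here by the older symbols of the array annotation (HIST1H, HIST2H, HIST3H and HIST4H). A gene was taken when at least 1 probe set carried its symbol and no other, and its value on each array was the median log2 signal of those probe sets. This gave 61 of the 18701 genes measured in this way: 6 of class H1, 14 of H2A, 19 of H2B, 11 of H3 and 11 of H4. Of these, 52 belong to the HIST1 cluster, 5 to HIST2, 3 to HIST3 and 1 to HIST4. A further 10 clustered histone genes, among them HIST2H4A, HIST2H4B and HIST2H3C, had only probe sets shared with another symbol and are not among the members.

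All 3 groups were HT29-tsp53 cells. This is an established line of human colorectal adenocarcinoma, HT-29, into which a mouse p53 with the V135A change was introduced, which makes its activity depend on temperature. In the p53 on group the cells spent 16 h at 32 °C, where this p53 is active. In the p53 on then off group the same 16 h were followed by 6 h back at the restrictive temperature, and in the p53 off group the cells stayed at that temperature, given as 38 °C in some labels and 37 °C in others. One label of the p53 on then off samples names 32 °C for the last 6 h, and the other labels of those samples were followed. Each group has 1 array from experiment 1 and 1 from experiment 2. Active p53 and the lower temperature cannot be told apart in this design, because no group without the transgene was at 32 °C in the samples used here.

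Histones package DNA. H2A, H2B, H3 and H4 form the nucleosome core, and H1 is the linker histone that binds where DNA enters and leaves it. Most clustered histone genes are transcribed in S phase, when new DNA needs new nucleosomes, and their mRNAs end in a conserved stem-loop in place of a poly(A) tail, so that they are made and degraded in step with DNA synthesis. Cyclin E and CDK2 drive their transcription through NPAT, and SLBP binds the stem-loop. When p53 is active, its target CDKN1A inhibits cyclin-dependent kinases and cells can stop before S phase. In RNA from whole cultures, fewer cells in S phase and less histone mRNA per such cell cannot be told apart.

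The 6 arrays behaved as labelled for known p53 targets, with a log2 difference of p53 on minus p53 off of 3.21 for CDKN1A and 3.52 for MDM2. All 9 listed markers of colorectal epithelium had a mean signal over log2 3.62, below which genes were too dim to test, as did 5 of 5 fibroblast, 2 of 4 leukocyte and 1 of 3 endothelial markers, with means between 4.35 and 12.46 for the colorectal list, 3.80 and 5.57 for the fibroblast list, 1.70 and 11.21 for the leukocyte list (CD68 and LYZ above the dim value) and 3.20 and 3.63 for the endothelial list. Their part in the histone results was not tested. The experiments differed in histone signal before any comparison of conditions. Over the 61 members, experiment 2 minus experiment 1 had a median log2 difference of -0.64 in p53 on, -1.01 in p53 on then off and -0.69 in p53 off, against 0.01, 0.01 and -0.03 over all genes. In all 3 conditions 41 of the 61 members were lower in experiment 2, against 23.7% of all genes. Conditions are therefore compared within each experiment, and the fit carries the experiment number as a block.

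Histone promoters hold short elements that differ by class, and the 6 stretches below stand for genes on which the results turn. They are HIST1H2BM and HIST1H2BN, which fell in p53 on with and without the block, HIST2H2BE, whose signal was higher in p53 on in both experiments, the H3 and H4 genes HIST1H3G and HIST1H4B, which fell in p53 on, and the H1 gene HIST1H1E, which fell in recovery. Each is the 140 bases before the annotated start of the gene, 5′ to 3′ on the gene's own strand, from RefSeq on GRCh38.p14. Capitals mark matches, on either strand, to 5 short motifs searched for: the octamer ATTTGCAT bound by POU2F1 in H2B genes, the CCAAT box, the TATA box TATAAA, the H1 box AAACACA and the H4 element GGTCCG. In HIST2H2BE a reverse match of the H4 element overlaps the CCAAT box.
HIST1H2BM, chr6:27814882-27815021, plus strand: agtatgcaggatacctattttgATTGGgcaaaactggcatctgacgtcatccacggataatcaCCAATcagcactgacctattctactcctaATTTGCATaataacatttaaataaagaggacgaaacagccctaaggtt
HIST1H2BN, chr6:27838429-27838568, plus strand: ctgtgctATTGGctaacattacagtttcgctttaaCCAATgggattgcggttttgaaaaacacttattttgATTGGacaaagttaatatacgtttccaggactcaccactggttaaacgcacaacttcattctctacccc
HIST2H2BE, chr1:149886683-149886822, minus strand: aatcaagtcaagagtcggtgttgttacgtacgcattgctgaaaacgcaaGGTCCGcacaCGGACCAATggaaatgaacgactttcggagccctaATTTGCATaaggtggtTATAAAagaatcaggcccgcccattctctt
HIST1H3G, chr6:26271414-26271553, minus strand: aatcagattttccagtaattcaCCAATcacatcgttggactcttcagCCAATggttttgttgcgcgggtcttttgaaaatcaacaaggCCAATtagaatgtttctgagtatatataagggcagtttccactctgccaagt
HIST1H4B, chr6:26027284-26027423, minus strand: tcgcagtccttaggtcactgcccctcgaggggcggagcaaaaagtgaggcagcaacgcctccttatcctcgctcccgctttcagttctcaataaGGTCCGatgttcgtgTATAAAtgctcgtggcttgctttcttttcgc
HIST1H1E, chr6:26156189-26156328, plus strand: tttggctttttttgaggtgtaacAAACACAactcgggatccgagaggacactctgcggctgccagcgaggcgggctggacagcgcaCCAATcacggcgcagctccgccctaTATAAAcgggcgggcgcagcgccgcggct

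A promoter window of 250 bases before to 50 after the start was found for 55 of the 61 members. The octamer was present in 14 of 18 H2B windows and 11 of 13 H2A windows, against 1.8% of 27305 windows of all genes. Many H2A and H2B genes lie head to head, so that their windows overlap and hold the same letters. The H1 box was in 6 of 6 H1 windows, against 5.76% of all genes, and the H4 element in 8 of 9 H4 windows, against 11.2%. The CCAAT box was in 49 of the 55 windows (35.7% of all genes) and TATAAA in 36 (12%). Among H2B genes the median difference of p53 on minus p53 off was -0.50 for the 14 with the octamer and -0.50 for the 4 without it. A match to these letters is a description of the window and shows no binding.

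The first comparison asks how the histone genes differed between cells with active p53 and control cells. In p53 on, 22 of the 50 members tested (44.0%) fell and 0 rose, by 1.75-fold to 3.64-fold (limma with the experiment block, n = 2 arrays per group). The adjusted p ran from 0.00106 to 0.0477, with log2 standard errors of 0.17 to 0.30. Of all 14025 genes tested, 6.28% fell and 5.18% rose by the same rule. At an unadjusted p under 0.05, 31 members were lower and 1 was higher, against 14.2% and 12.4% of all genes. The other 11 members were too dim to test. Over all 61 members, tested or not, the median log2 difference was -0.64, with -0.74 in experiment 1 and -0.64 in experiment 2, against 0.03 over all genes.

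Within the experiments, 47 of the 61 members (77.0%) were lower in p53 on both times, against 29.2% of all genes, and 4 were higher both times, against 32.5%. The number whose signals did not overlap was smaller, with both p53 on arrays below both p53 off arrays for 23 members, against 18.7% of all genes. Without the block, 2 members were called, HIST1H2BM and HIST1H2BN, both lower, against 0.585% of all genes lower and 0.898% higher, and the other 20 had adjusted p between 0.166 and 0.622. At an unadjusted p under 0.05 without the block, 8 members were lower and 1 higher, against 8.1% and 7.33% of all genes. With the block but without p53 off array 2, fewer members were called, and fewer of all genes as well. Members with a mean signal above that of the median gene had a median of -0.99 over 29 genes, and the dimmer 32 had -0.40.

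**Figure D1:**
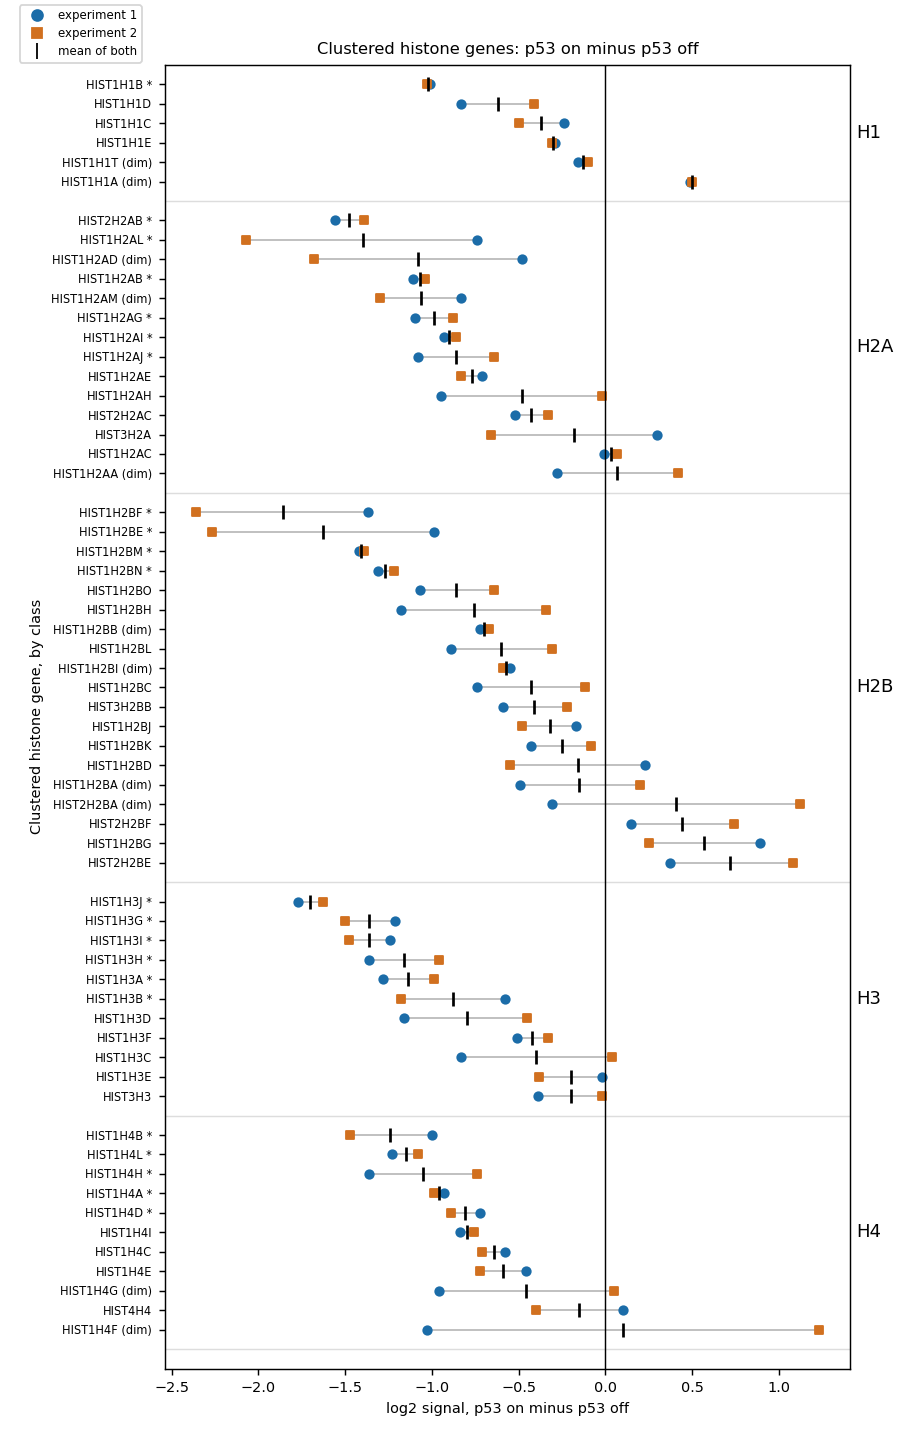
Log2 signal of p53 on minus p53 off for each of the 61 clustered histone genes, by class, with experiment 1 as circles, experiment 2 as squares and their mean as a tick. An asterisk marks the 22 genes called in limma with the block and "dim" the 11 genes not tested; most points lie left of 0, and HIST2H2BE, HIST2H2BF, HIST1H2BG and the dim HIST1H1A lie right of it in both experiments.

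The H1 genes, which encode linker histones, had the class median closest to 0, at -0.34 over 6 genes. That rank rests partly on the dim members HIST1H1A (0.50) and HIST1H1T (-0.13). HIST1H1B (now H1-5) was the only call, of 4 tested. Its log2 signals were 8.88 and 7.84 in p53 on, against 9.89 and 8.87 in p53 off, for experiments 1 and 2 in turn. The highest p53 on array lay just above the lowest p53 off array, while the fall was alike within the experiments. HIST1H1B fell 2.03-fold (-1.02 ± 0.20, SE, adjusted p = 0.0147). HIST1H1E (now H1-4) stood at 9.96 and 8.60 in p53 on and 10.25 and 8.91 in p53 off, a difference of -0.30 that was not called (adjusted p = 0.312). HIST1H1D (now H1-3), at 4.40 and 3.93 in p53 on and 5.23 and 4.34 in p53 off, differed by -0.62 and was not called either (adjusted p = 0.0618). HIST1H1A and HIST1H1T, the second a testis gene, were too dim to test.

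Of the H2A genes 6 of 11 tested fell, by 1.81-fold to 2.78-fold, and the class median was -0.88 over 14 genes. HIST2H2AB had signals of 8.69 and 6.52 in p53 on, against 10.25 and 7.91 in p53 off. Experiment 2 lay far below experiment 1 in both conditions, so the groups overlapped, but the differences within the experiments were -1.56 and -1.39. HIST2H2AB fell 2.78-fold (-1.48 ± 0.17, adjusted p = 0.00195). HIST1H2AL was at 6.32 and 3.87 in p53 on and 7.05 and 5.93 in p53 off. Its fall of 1.40 ± 0.29 (adjusted p = 0.0188) was uneven, with -0.74 in experiment 1 and -2.07 in experiment 2. Its probe sets disagreed, and the call was lost with their mean (-0.32, adjusted p = 0.13) and with the bright ones alone (-0.47, adjusted p = 0.353). The other calls were HIST1H2AB, HIST1H2AG, HIST1H2AI and HIST1H2AJ. That of HIST1H2AJ held in 7 of 16 alternative settings, and that of HIST1H2AB in 15 of 16. In such tallies, here and below, the settings are not all distinct. Leaving out either array of the group not compared gave the same fit as using only the groups compared. That result is therefore counted repeatedly. HIST1H2AC was at the other end of the class with a difference of 0.03, from signals of 4.86 and 4.6 in p53 on and 4.87 and 4.53 in p53 off. The probe sets of HIST1H2AC disagreed too, and the brightest of its 4 was lower by 0.81 and 0.62 in the experiments.

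With the median of probe sets as the gene value, the H2B genes held both the largest fall and the highest difference among the members. HIST1H2BF stood at 7.51 and 4.97 in p53 on, against 8.89 and 7.33 in p53 off, and fell 3.64-fold (-1.86 ± 0.24, adjusted p = 0.00297). Its brightest probe set alone gave -1.0 (adjusted p = 0.0456), against -1.68 for that of HIST1H3J. HIST1H2BE stood at 5.93 and 2.94 in p53 on, against 6.93 and 5.21 in p53 off, and fell 3.1-fold (-1.63 ± 0.30, adjusted p = 0.0116). The signal of 2.94 lay under the dim value of 3.62, so the size of this fall is uncertain, and it was -1.09 with the mean of probe sets and -1.23 with the bright ones. For both genes the fall was larger in experiment 2 than in experiment 1. HIST1H2BM (now H2BC14) was at 7.45 and 7.51 in p53 on and at 8.87 and 8.91 in p53 off. These groups did not overlap, and the experiments differed by less than 0.1 log2 units within a condition, unlike most members. HIST1H2BM fell 2.65-fold (-1.41 ± 0.17, adjusted p = 0.00204, or 0.0256 without the block). HIST1H2BN, at 5.10 and 5.33 in p53 on and 6.41 and 6.56 in p53 off, fell 2.4-fold (-1.27 ± 0.20, adjusted p = 0.00646, or 0.0494 without the block). Both calls were lost with the brightest probe set, at -0.95 for HIST1H2BM (adjusted p = 0.0575) and -0.67 for HIST1H2BN (adjusted p = 0.116). The 3 probe sets that HIST1H2BN shares with HIST1H2AK differed by -0.31 and 0.43 in the experiments. In all, 4 of 15 tested H2B genes fell, and the class median was -0.43 over 19 genes.

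Of the H3 genes 6 of 11 fell, all 11 had differences below 0, and the class median was -0.88. HIST1H3J had the smallest adjusted p of all members. Its signals were 4.59 and 3.67 in p53 on, against 6.36 and 5.31 in p53 off, with no overlap, and it fell 3.25-fold (-1.70 ± 0.17, adjusted p = 0.00106, or 0.166 without the block). HIST1H3G was at 6.81 and 5.65 in p53 on and 8.02 and 7.15 in p53 off, also without overlap, and fell 2.56-fold (-1.36 ± 0.24, adjusted p = 0.00991). HIST1H3I, at 8.96 and 7.42 in p53 on and 10.21 and 8.90 in p53 off, fell 2.57-fold (-1.36 ± 0.20, adjusted p = 0.00458), with the groups overlapping across experiments. HIST1H3A, HIST1H3B and HIST1H3H fell too. HIST3H3, a testis H3 gene of the HIST3 cluster, differed by -0.20 (adjusted p = 0.561).

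Of the H4 genes 5 of 9 tested fell, by 1.75-fold to 2.35-fold, with a class median of -0.80 over 11 genes. HIST1H4B had signals of 5.80 and 5.12 in p53 on and 6.81 and 6.58 in p53 off, and fell 2.35-fold (-1.24 ± 0.23, adjusted p = 0.0119). HIST1H4L, at 4.99 and 4.33 in p53 on and 6.21 and 5.41 in p53 off, fell 2.22-fold (-1.15 ± 0.20, adjusted p = 0.00966). Neither gene's groups overlapped. HIST1H4A, HIST1H4D and HIST1H4H were the other calls. The call of HIST1H4A held in 8 of 15 alternative settings. Its brightest probe set differed by -0.67 and 0.67 in the experiments, and its p53 on signal of 3.12 in experiment 2 lay under the dim value. HIST1H4E was at 7.94 and 7.80 in p53 on, below 8.41 and 8.52 in p53 off, and was not called (-0.59, adjusted p = 0.102). HIST4H4, the lone member of its cluster, had differences of opposite sign in the experiments (0.10 and -0.40). Many histone genes of a class are near-identical copies, so their probe sets may pick up each other's transcripts, and the members of a class are not independent of each other.

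**Figure D2:**
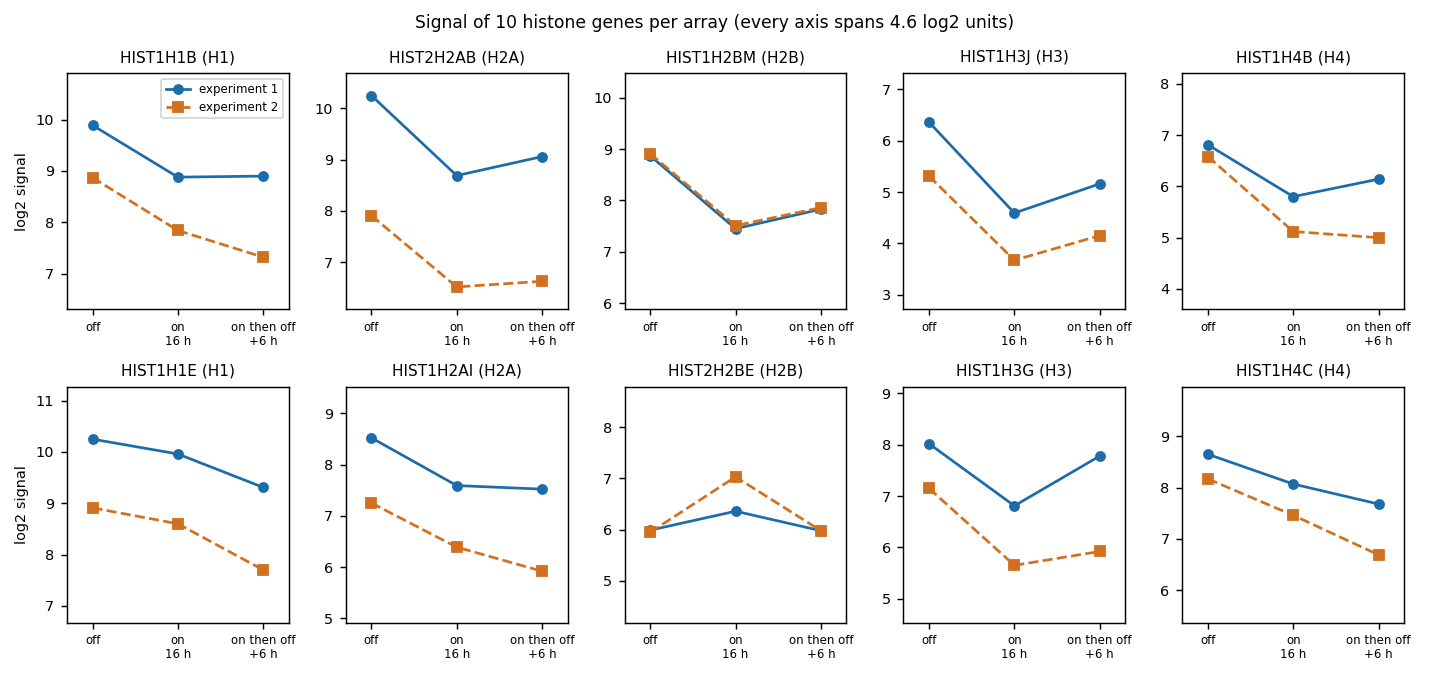
Log2 signal of 10 clustered histone genes (2 per class) on each array in p53 off, p53 on and p53 on then off, joined within experiment 1 (circles, solid) and experiment 2 (squares, dashed), with every axis spanning 4.6 log2 units. HIST1H2BM is nearly alike in both experiments, HIST2H2BE is highest in p53 on, and HIST1H1E, HIST1H2AI and HIST1H4C are lowest in p53 on then off in both experiments.

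Among the clustered genes, 6 were listed as giving polyadenylated transcripts, which can be made outside S phase, as well as stem-loop ones. They are HIST1H1C, HIST1H2AC, HIST1H2BC, HIST1H2BD, HIST1H2BK and HIST2H2BE, and the list may leave out others. Of the 6 listed, 0 were called in p53 on in limma, against 6.28% of all genes lower and 5.18% higher. At those shares 0 calls among 6 genes says little. At an unadjusted p under 0.05, 0 were lower and 1 higher, against 14.2% and 12.4% of all genes. The median difference of the 6 was -0.20. HIST2H2BE (now H2BC21) had the highest difference of all members. It was at 6.36 and 7.03 in p53 on, against 5.99 and 5.95 in p53 off, so that both p53 on arrays lay above both p53 off arrays, but the difference of 0.72 ± 0.21 did not pass the threshold (adjusted p = 0.0641, or 0.246 without the block). This call turned on the settings. It passed with the limma trend prior (adjusted p = 0.0322), with the lowest 50% of genes by signal left out (adjusted p = 0.0234) or with only the groups compared (adjusted p = 0.048). The mean of probe sets gave a difference of 0.29 (adjusted p = 0.193), and the brightest probe set alone gave -0.32 (adjusted p = 0.39). Without p53 on array 1 the difference was 1.06, and without p53 on array 2 it was 0.38. The other 5 lay between -0.43 (HIST1H2BC) and 0.03 (HIST1H2AC). With the mean of probe sets the sign turned for HIST1H2BC (0.14) and HIST1H2BD (-0.16 as the median, 0.20 as the mean), and with bright probe sets alone HIST1H2BC was called lower (-0.77, adjusted p = 0.0496).

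The probe sets of HIST2H2BE disagreed in direction. Of the 4 that carry its symbol alone, one was higher in p53 on by 1.20 and 1.35 in the experiments and another by 0.66 and 0.80. The remaining 2 were lower, by 0.31 and 0.34 and by 0.80 and 0.26. Probe sets shared by HIST2H2BE with HIST2H2BF and HIST2H2BA were lower by 1.17 to 1.51, and those shared with HIST1H2BK as well by 0.81 and 0.40. Which part of the transcript each probe set covers was not used here. Such splits were not limited to this gene. In HIST1H2BC one dim probe set was higher by 2.07 and 2.25 and the brightest lower by 1.24 and 0.50, and in HIST1H2BD one was higher by 2.02 and 2.30 and another lower by 1.23 and 0.60. HIST2H2BF had a difference of 0.44 from the median of 6 probe sets, while its brightest, present under 2 identifiers with equal values, was lower by 0.91 and 1.35. HIST1H2BG had a difference of 0.57, and its brightest probe set was lower by 1.23 and 1.17.

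**Figure D3:**
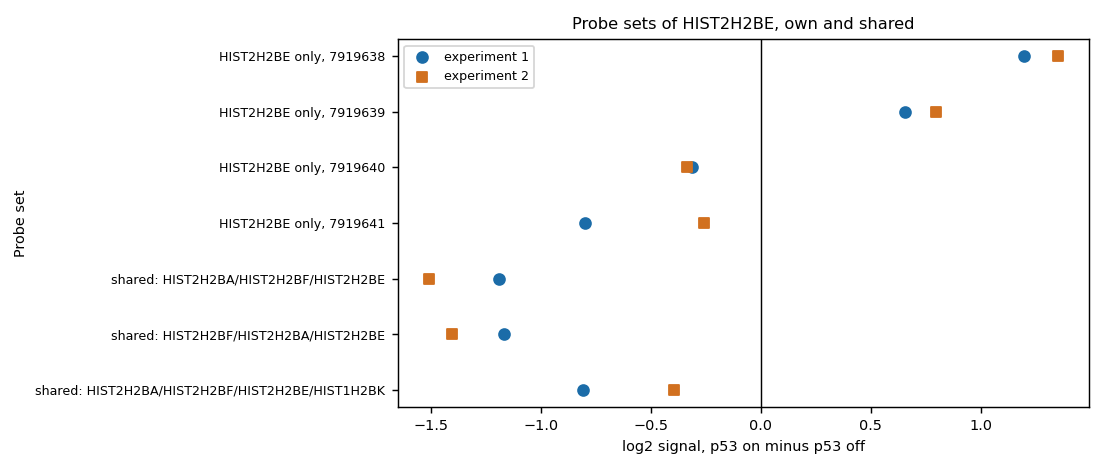
Log2 signal of p53 on minus p53 off for the 4 probe sets of HIST2H2BE alone (named by identifier) and for those it shares with other histone symbols, with experiment 1 as circles and experiment 2 as squares. Of the 4 own probe sets 2 lie right of 0 and 2 left of it, and all shared ones lie left of 0.

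Over all 186 probe sets of the members, 126 were lower in p53 on in both experiments and 19 were higher. The same counts over all probe sets of the array were not made, so these are a description only. Probe sets with equal values under different identifiers, in HIST1H2AI, HIST1H3H and HIST2H2BF, were counted separately. Of the 133 probe sets above the dim value, 105 were lower and 10 higher, with a median of -0.78, and of the 53 at or below it, 21 were lower and 9 higher, with a median of -0.23. The gene values, as medians over probe sets, include the dim ones.

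Position in the genome was compared with the differences, using RefSeq only for the order of genes. The HIST1 genes with a promoter entry formed 5 groups of neighbours on chromosome 6, divided where gene starts lay more than 50000 bases apart. The last group, 11 genes running from HIST1H2BL to HIST1H2BO, had a median difference of -1.06 and 8 falls. The largest group, 22 genes from HIST1H1T to HIST1H4H, had a median of -0.58 and 5 falls, and the first, the testis genes HIST1H2AA and HIST1H2BA, one of -0.04. These medians were not tested against each other. Members too dim to test enter the medians but cannot count as falls, and signal level was not matched between the groups. Of 12 head-to-head pairs of members with starts at most 1000 bases apart, both genes had a difference below 0 in 8. Of all 61 members 53 had a difference below 0, so most pairs of any members would have both below 0. The partners differed by a median of 0.50, which was not compared with members that are not neighbours. HIST2H2BE and HIST2H2AC, 236 bases apart, stood at 0.72 and -0.43. HIST1H2AD and HIST1H3D share an annotated start and so both form a pair with HIST1H2BF.

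The p53 on then off arrays were next set against p53 on, to see whether histone signals moved once p53 had been off for 6 h. Few did. Of the 50 tested, 2 fell (4.0%) and 0 rose (limma with the block), against 3.39% of all genes that fell and 3.84% that rose, so the share that fell was near that of the whole array. Without the block 0 were called, against 0.285% of all genes lower and 0.143% higher, with 1 member lower and 0 higher at an unadjusted p under 0.05, against 5.6% and 6.66% of all genes. With the block, 7 members were lower and 2 higher at that level, against 10.3% and 11.9% of all genes. The median over the 61 members was 0.05, with 0.10 in experiment 1 and -0.11 in experiment 2, against 0.01 over all genes. Both experiments gave lower values for 21 members and higher ones for 15, against 30.0% and 32.7% of all genes. Both p53 on then off arrays lay below both p53 on arrays for 4 members, against 17.4% of all genes.

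HIST1H1E had signals of 9.31 and 7.70 in p53 on then off, against 9.96 and 8.60 in p53 on. The groups overlapped across experiments, and the change went the same way within both (-0.65 and -0.90). HIST1H1E fell 1.71-fold (-0.77 ± 0.17, adjusted p = 0.0343, or 0.774 without the block). HIST1H2BC, at 4.68 and 3.33 in p53 on then off and 5.25 and 4.49 in p53 on, fell 1.82-fold (-0.86 ± 0.20, adjusted p = 0.0403, or 0.652 without the block). These calls held in 8 of 16 alternatives for HIST1H1E and in 7 of 15 for HIST1H2BC. They were lost without the block, with no filter on dim genes, and without p53 on then off array 2.

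Other members of H1 and H4 had low values after recovery without passing the threshold. HIST1H1D was at 3.91 and 3.31 in p53 on then off and at 4.40 and 3.93 in p53 on (-0.55, adjusted p = 0.113). HIST1H4C was at 7.68 and 6.69 in p53 on then off and at 8.07 and 7.46 in p53 on (-0.58, adjusted p = 0.11). HIST1H4E, at 7.59 and 7.0 in p53 on then off and 7.94 and 7.80 in p53 on, also differed by -0.58 (adjusted p = 0.137). HIST2H2BE, the member with the highest difference of p53 on minus p53 off, was at 5.98 and 5.98 in p53 on then off, close to its p53 off signals, against 6.36 and 7.03 in p53 on (-0.71, adjusted p = 0.0862).

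At the other end, several genes that had fallen in p53 on were higher after recovery in both experiments, none of them called. The p53 on arrays are shared with the first comparison, so that a low p53 on signal enters both. HIST1H3G was at 7.78 and 5.92 in p53 on then off, against 6.81 and 5.65 in p53 on (0.62, adjusted p = 0.168). HIST1H3J was at 5.16 and 4.15 in p53 on then off, against 4.59 and 3.67 in p53 on (0.52, adjusted p = 0.106). HIST1H2BM was at 7.83 and 7.86 in p53 on then off, against 7.45 and 7.51 in p53 on (0.36, adjusted p = 0.242). HIST1H2AH, whose difference in p53 on was not called (-0.48, adjusted p = 0.256), had the largest value of the H2A genes tested (0.56, adjusted p = 0.228). Nearly all of it came from experiment 1, but its p53 on signals of 3.28 and 3.53 lay under the dim value of 3.62. Its brightest probe set rose in both experiments, from 5.75 to 6.01 and from 4.92 to 5.25. The class medians were -0.28 for H1, 0.06 for H2A, -0.19 for H2B, 0.15 for H3 and 0.14 for H4. The experiments disagreed in sign for 25 of the 61 members, with the widest gap in HIST1H3D at 1.79 and -1.56. That gap came mainly from a dim probe set with a mean signal of 1.35. From p53 on to p53 on then off it went from -0.37 to 3.18 in experiment 1 and from 2.36 to -0.24 in experiment 2. The brighter probe set of HIST1H3D went from 8.09 to 8.13 and from 6.28 to 5.77.

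**Figure D4:**
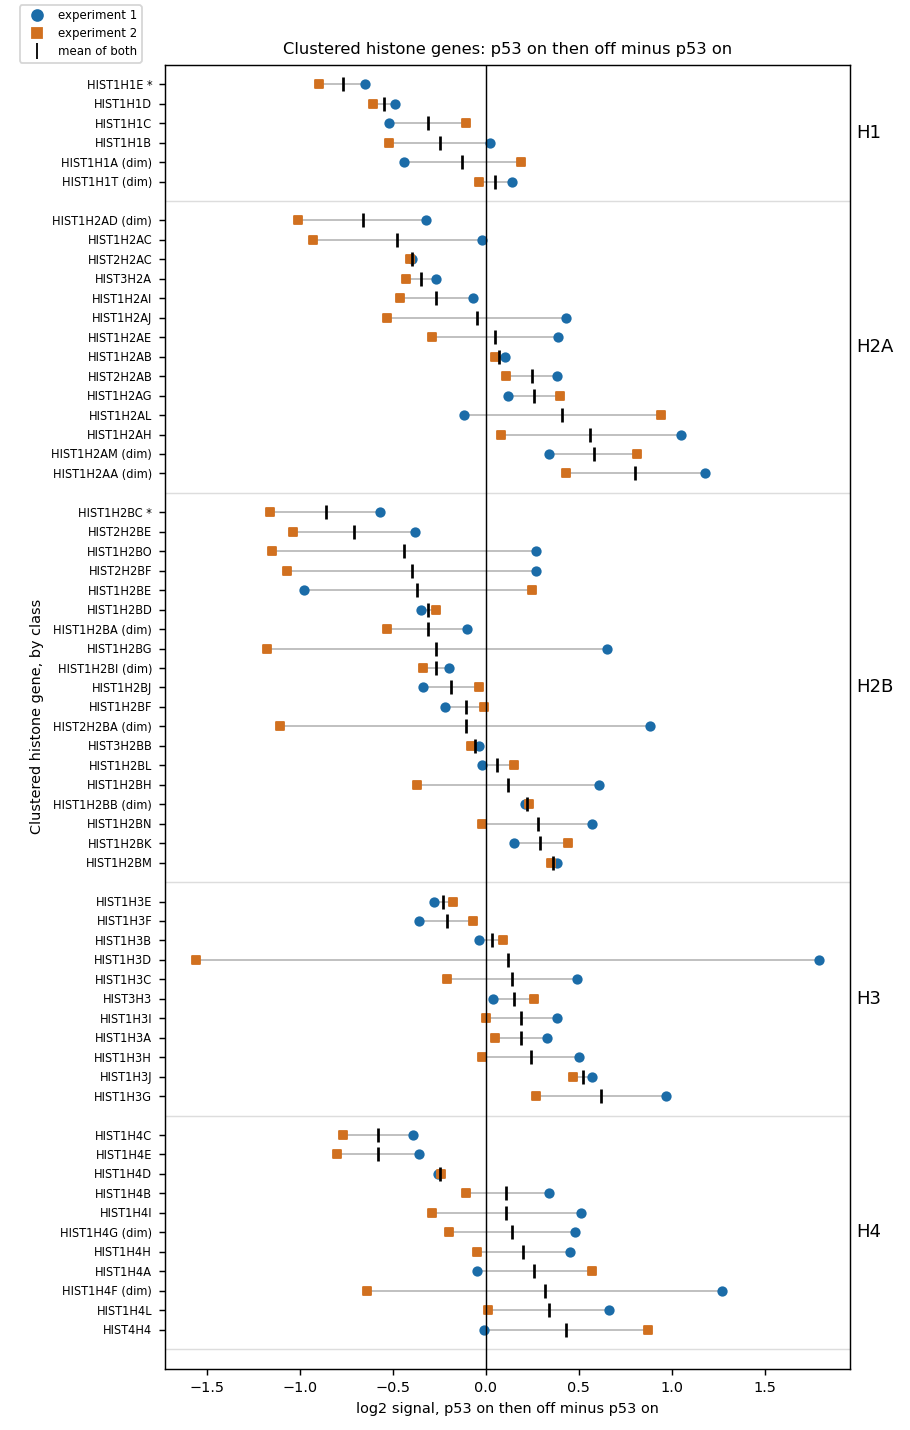
Log2 signal of p53 on then off minus p53 on for each of the 61 clustered histone genes, by class, with experiment 1 as circles, experiment 2 as squares and their mean as a tick. Points lie on both sides of 0 in every class, and asterisks mark the 2 genes called, HIST1H1E and HIST1H2BC.

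The third comparison sets the cells after recovery against cells in which p53 had not been activated. In p53 on then off, 14 of 50 members (28.0%) fell and 0 rose, by 2-fold to 3.99-fold, against 0.392% of all genes that fell and 0.207% that rose. The adjusted p lay between 0.0179 and 0.0456, and 38 members were lower and 0 higher at an unadjusted p under 0.05, against 6.38% and 6.6% of all genes. The upper end of 3.99-fold is that of HIST1H2BE, whose p53 on then off signal in experiment 2 (3.19) lay under the dim value. The 14 falls made up part of the 55 falls called among 14025 genes. Over the 61 members the median was -0.72, with -0.65 in experiment 1 and -0.94 in experiment 2, and 48 were lower in both experiments, against 26.1% of all genes, and 6 higher, against 32.6%. Both p53 on then off arrays lay below both p53 off arrays for 22 members, against 14.2% of all genes. This comparison shares its p53 off arrays with the first one.

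These calls rest on a narrow margin. Without the block 0 members were called, against 0.0% of all genes lower and 0.0285% higher, with 9 members lower and 0 higher at an unadjusted p under 0.05 (2.44% and 2.88% of all genes), and the 14 genes had adjusted p between 0.483 and 0.999. Without p53 off array 2 the count was 0, without p53 off array 1 it was 1 and without p53 on then off array 2 it was 2. Leaving out a p53 on array, which enters this comparison through the spread alone, gave 24.

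HIST1H2BF had the smallest adjusted p in this comparison, at 7.30 and 4.96 in p53 on then off, against 8.89 and 7.33 in p53 off (-1.98 ± 0.24, adjusted p = 0.0179). HIST1H2BE fell by 2.00 ± 0.30, to 4.95 and 3.19 in p53 on then off, against 6.93 and 5.21 in p53 off (adjusted p = 0.0377). Of the 4 H1 genes tested 3 fell, with HIST1H1E at 9.31 and 7.70 in p53 on then off and 10.25 and 8.91 in p53 off (-1.08 ± 0.17), HIST1H1B at -1.27 ± 0.20 and HIST1H1D at -1.17 ± 0.18 (adjusted p = 0.0413 each). The H4 gene HIST1H4C, at 7.68 and 6.69 in p53 on then off and 8.65 and 8.17 in p53 off, fell by 1.22 ± 0.19 (adjusted p = 0.0413). HIST1H3J fell by 1.18 ± 0.17 (adjusted p = 0.0331), HIST1H3I by 1.17 ± 0.20 (adjusted p = 0.0456), HIST2H2AB by 1.23 ± 0.17 (adjusted p = 0.0326) and HIST1H2BM by 1.04 ± 0.17 (adjusted p = 0.0413). HIST1H2AB, HIST1H2AI, HIST1H2BC and HIST1H4D complete the 14. HIST2H2BE differed by 0.01 and HIST1H2BK by 0.04.

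Genes around the histones in the same pathways were read as lists. The 10 measured histone variants listed as replication-independent, most of which have polyadenylated mRNAs, had a median of -0.11 in p53 on minus p53 off. In limma 0 were called, against 6.28% of all genes lower and 5.18% higher, and at those shares 0 calls among 10 genes says little. At an unadjusted p under 0.05, 2 were lower and 0 higher, against 14.2% and 12.4% of all genes. H2AFZ, the gene of the variant H2A.Z, differed by -0.47 (adjusted p = 0.12) and CENPA, the centromeric H3, by -0.55 (adjusted p = 0.127). In recovery minus p53 on 0 of the 10 were called as well, against 3.39% of all genes lower and 3.84% higher. At an unadjusted p under 0.05 there were 0 too, against 10.3% and 11.9% of all genes.

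Of 22 genes of histone mRNA transcription, processing and decay, 4 fell in p53 on (18.2%, against 6.28% of all genes), with a list median of -0.26. They were CCNE2, a cyclin E gene (-1.1, adjusted p = 0.00952), ERI1, an exonuclease that trims the stem-loop (-0.81, adjusted p = 0.0382), LSM11, a subunit of the U7 particle that guides cleavage (-0.66, adjusted p = 0.0415), and NPAT (-0.63, adjusted p = 0.0444). SLBP differed by -0.44 and was not called (adjusted p = 0.181). In recovery 2 of the 22 rose relative to p53 on, against 3.84% of all genes. They were CCNE2 (1.63, adjusted p = 0.00341) and CCNE1 (1.04, adjusted p = 0.0106), and the list's median was 0.28. SLBP was at 0.51 (adjusted p = 0.156) and NPAT at 0.48 (adjusted p = 0.13).

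Of 19 histone chaperone and chromatin assembly genes, 5 fell in p53 on (26.3%, against 6.28% of all genes), with a list median of -0.40. Among them were NASP, a chaperone of soluble H3 and H4 (-1.03, adjusted p = 0.0129), CHAF1A, a subunit of the assembly factor CAF-1 (-0.98, adjusted p = 0.0181), HJURP, the chaperone of CENPA (-0.83, adjusted p = 0.0245), and RBBP4 (-0.65, adjusted p = 0.0476). In recovery CHAF1A rose (1.14, adjusted p = 0.0139) and was the only call of the 19, against 3.84% of all genes that rose and 3.39% that fell. The list's median was 0.25. Without the block 0 genes of these 2 lists were called in either comparison. The shares of all genes were then 0.585% lower and 0.898% higher in p53 on, and 0.285% lower and 0.143% higher in recovery.

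Of 25 genes of S phase and replication, 14 fell in p53 on (56.0%, against 6.28% of all genes), with a list median of -0.83. Without the block 5 fell, against 0.585% of all genes. The largest falls were in GINS2 (-1.86), MCM10 (-1.67), CDC6 (-1.65) and POLA1 (-1.34), genes of helicase loading and activation and of DNA polymerase alpha, with adjusted p between 0.00138 and 0.00309. In recovery 12 of the 25 rose relative to p53 on, against 3.84% of all genes, and 2 without the block, against 0.143%. The list's median was 0.73. The largest rises were in MCM10 (1.79), CDC6 (1.79), MCM3 (1.31) and RFC4 (1.21), with adjusted p between 0.00197 and 0.0108. In p53 on then off minus p53 off the median of the 25 was -0.06 and 0 were called, against 0.392% of all genes lower and 0.207% higher. At an unadjusted p under 0.05, 4 were lower and 0 higher, against 6.38% and 6.6% of all genes. Over the same recovery 0 of 50 histone genes rose with the block and their median was 0.05. The difference between these lists was not tested, and the list members were chosen with earlier results of these data known.

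**Figure D5:**
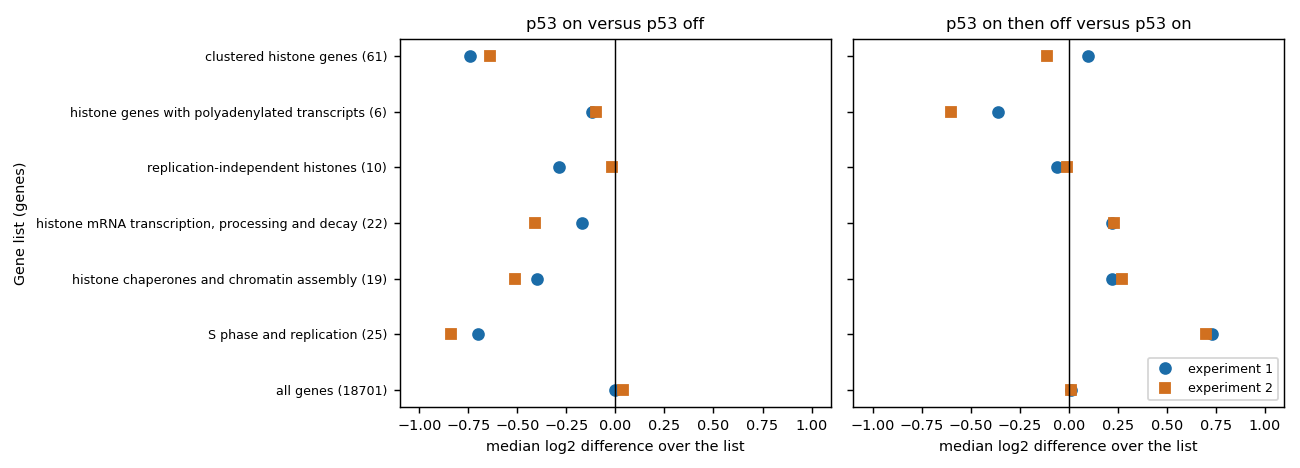
Median log2 difference over each gene list in experiment 1 (circles) and experiment 2 (squares), for p53 on minus p53 off on the left and p53 on then off minus p53 on on the right, with the number of genes in brackets. The clustered histone genes lie near the S phase genes on the left (-0.74 and -0.64), and on the right they lie near 0 (0.10 and -0.11) while the S phase genes lie at 0.73 and 0.70.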

How the data were processed

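The authors deposited 1 table of log2 values, with a row per exon-level probe set and a column per Affymetrix Gene 1.0 ST array. The labels' protocols name biotin-labelled total RNA. The log2 scale was judged from the range of -0.85 to 13.14, while the sources used here name no program, background step or normalization. Column medians lay between 5.24 and 5.31, so no scaling was added. Precision is limited by the number of arrays.

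Among the 257430 probe sets, 224320 carried 1 gene symbol, 10159 several and 22951 none. Members had 1 to 6 probe sets (median 3). Genes in the lowest 25% by mean signal (log2 3.62) were left out of the tests, leaving 14025. The fit used limma 3.58.1 (R 4.3.3) on all 6 arrays, with the experiment number as a block, because conditions were to be compared within experiments. P-values were adjusted by Benjamini-Hochberg over all genes tested, and called under 0.05. Errors are limma standard errors. With 2 arrays against 2, an exact permutation test cannot pass that threshold. Same-numbered arrays deviated together from their group means (correlations across genes 0.496, 0.551 and 0.63). Nothing in the labels beyond that number says that the 2 arrays of a group came from separate cultures, so p-values measure the spread between these samples, which may be technical.

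The members and lists were chosen with earlier results of these data known. Members named were, per class, the highest by signal, the 2 lowest and the highest by p53 on minus p53 off and the largest absolute recovery difference, with every member called without the block or in recovery, and the polyadenylated genes. From the other lists, up to 4 called genes each were named. HIST1H2BG, HIST2H2BF, HIST1H3D, the remaining called members, the pair and block members, and the uncalled SLBP, NPAT in recovery, H2AFZ and CENPA were named after their values were seen. All 61 members matched a current RefSeq symbol.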

Additional observations from a re-analysis of the deposited data

How the results depend on the processing

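In p53 on minus p53 off, 22 members were called, and 2 with no replicate block. The count lay between 11 and 28 when 1 array was left out, 11 without p53 off array 2. In p53 on then off minus p53 on, 2 were called, and 0 with no replicate block, with no filter on dim genes, with only probe sets above the dim value or with the brightest probe set of each gene, an alternative chosen after seeing the data. The limma trend prior gave 4, and leaving out 1 array gave 1 to 3. In p53 on then off minus p53 off, 14 were called, and 0 with no replicate block, with no dim filter or with the brightest probe set. The count was 3 with only bright probe sets, 4 after centring on the non-histone median, 25 with the mean of probe sets, 24 with only the groups compared and 0 to 24 without 1 array. In limma, members lower at an unadjusted p under 0.05 in these fits with 0 calls numbered 1, 6, 7 and 3 in the second comparison and 9, 41 and 41 in the third. Without 1 array of a group, its lone array is assumed to vary like the others, and 1 residual degree of freedom is left.

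The median over members in the first comparison, -0.64, was -0.99 over the 29 members left when the lowest 50% of genes by signal were removed, -0.80 with bright probe sets and -0.90 with the brightest one, and between -0.79 and -0.51 without 1 array. In the second comparison the median of 0.05 lay between -0.10 and 0.11 without 1 array. In the third, -0.72, it was -0.95 with the lowest 50% removed and between -0.92 and -0.70 without 1 array. Among the 25 members named by rule, 0 that were called in a comparison changed sign under the alternatives run. Called members outside these 25, such as HIST1H4A and HIST1H2AJ, were left out of that check. HIST2H2BE, not called, was 0.72 in the first comparison and -0.32 with its brightest probe set.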

Other observations

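Experiment 2 had lower histone signals than experiment 1 in every class. The median log2 difference of experiment 2 minus experiment 1 in p53 on then off was -0.64 for H1, -1.43 for H2A, -0.50 for H2B, -1.01 for H3 and -0.99 for H4. In p53 off it was -0.87, -0.75, -0.26, -0.87 and -0.54 in the same order. Of the 14 H2A genes 12 were lower in experiment 2 in all 3 conditions, and of the 19 H2B genes 10 were. HIST2H2AB differed by 2.34 log2 units between the p53 off arrays, whereas HIST1H2BM, HIST1H2BN and HIST2H2BE differed little there. The labels give no date or batch beside the experiment number.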
